A study of Mus musculus with 6 samples.

Results

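Goblet cells and their relatives at the crypt base were followed through 33 genes, chosen by name and not by how they moved, and measured by 50 of the 45101 probe sets on a mouse expression array. The genes were taken by the symbol of the platform annotation and read in 4 groups by role: 11 mucus proteins, 11 genes of secretory machinery, 6 lineage factors and 5 markers of deep crypt secretory or Paneth cells. Of the 33 genes, 22 had 1 probe set, 6 had 2, 4 had 3 and 1 had 4. All 33 had at least 1 probe set, and 31 had a mean signal above the filter on low values described with the comparison.

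Colon was compared between HDAC2 KO mice (3 arrays) and control mice (3 arrays). HDAC2 KO mice carried a floxed Hdac2 gene, which encodes the histone deacetylase HDAC2, and a Cre recombinase driven by the villin promoter, which is active in epithelial cells of the intestine. The background of both groups was mixed from CD-1, 129 and C57BL/6, no treatment was given, and the sources used here give neither the age nor the sex of the mice, nor whether controls carried the floxed gene or Cre. The description label of the HDAC2 KO samples names HDAC1 as well as HDAC2, while title and genotype name HDAC2 alone. The sample titles number the arrays of each group as replicates of mice colon and do not say whether each stands for a single mouse. The p-values thus measure the spread between these arrays. The labels name the source both as colon epithelium and as colon.

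Goblet cells make the mucus that separates the colonic epithelium from bacteria. The gel is built from the mucin MUC2 and holds small proteins such as trefoil factors, while cell surface mucins stay bound to the apical membrane. The lineage is set by the transcription factor ATOH1 and matured by SPDEF, and deep crypt secretory cells, marked by Reg4 in mouse colon, occupy the place that Paneth cells hold in the small intestine.

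The promoters of 5 called genes are printed because these genes are the members called in the comparison that have exactly 1 listed start in the RefSeq table of GRCm38.p6. Of the 33 genes, 20 were found in that table. A further 3 called genes, Tpsg1, Slc12a8 and Foxa2, had several listed starts, and 2, Kcnk6 and Retnlb, had no entry there. Each window holds 250 bases before and 50 bases after the start, written 5′ to 3′ on the gene's strand. The window of Muc1 lies at chr3:89228806-89229105 (plus strand), that of Spdef at chr17:27728902-27729201 (minus strand) and that of Nupr1 at chr7:126625421-126625720 (minus strand), and all 3 genes were higher in HDAC2 KO. That of Lyz1 lies at chr10:117292819-117293118 (minus strand) and that of Mptx1 at chr1:174330268-174330567 (plus strand), and both genes were lower. Capitals mark matches, on either strand, to the letters searched for.
Muc1: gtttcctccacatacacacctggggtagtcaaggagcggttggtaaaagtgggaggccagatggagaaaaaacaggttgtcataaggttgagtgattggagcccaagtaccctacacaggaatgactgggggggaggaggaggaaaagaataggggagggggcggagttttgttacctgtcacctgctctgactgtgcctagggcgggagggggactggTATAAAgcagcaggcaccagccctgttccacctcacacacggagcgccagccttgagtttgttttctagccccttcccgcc
Spdef: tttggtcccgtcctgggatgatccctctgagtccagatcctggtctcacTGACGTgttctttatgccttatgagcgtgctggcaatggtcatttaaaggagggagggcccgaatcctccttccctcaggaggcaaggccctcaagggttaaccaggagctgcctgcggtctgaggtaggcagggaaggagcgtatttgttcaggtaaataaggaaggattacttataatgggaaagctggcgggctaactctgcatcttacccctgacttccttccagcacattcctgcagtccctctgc
Nupr1: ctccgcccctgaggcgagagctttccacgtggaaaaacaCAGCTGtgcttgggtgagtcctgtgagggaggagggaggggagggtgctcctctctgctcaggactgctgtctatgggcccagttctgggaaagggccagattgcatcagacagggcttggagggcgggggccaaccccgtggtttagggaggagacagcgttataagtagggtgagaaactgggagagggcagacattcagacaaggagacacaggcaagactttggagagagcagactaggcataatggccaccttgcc
Lyz1: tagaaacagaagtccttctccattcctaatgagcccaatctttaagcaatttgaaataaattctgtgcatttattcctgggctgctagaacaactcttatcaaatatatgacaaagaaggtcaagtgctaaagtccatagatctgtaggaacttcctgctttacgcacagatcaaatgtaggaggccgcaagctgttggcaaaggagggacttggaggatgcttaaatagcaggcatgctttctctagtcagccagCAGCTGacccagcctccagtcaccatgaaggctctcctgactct
Mptx1: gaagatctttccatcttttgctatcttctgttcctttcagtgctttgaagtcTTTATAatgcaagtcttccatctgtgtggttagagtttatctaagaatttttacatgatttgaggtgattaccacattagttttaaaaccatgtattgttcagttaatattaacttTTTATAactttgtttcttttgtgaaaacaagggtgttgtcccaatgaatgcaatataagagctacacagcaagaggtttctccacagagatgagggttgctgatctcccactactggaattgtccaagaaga

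The letters searched were TGTTTAC for FOXA factors, CAGCTG for an E-box of the ATOH1 type, TTTATNG for CDX factors, TATAAA for the TATA box and TGACGT for the core bound by CREB3 family factors and XBP1. Muc1 held TATAAA from base -31 relative to the start. Mptx1 held it on the opposite strand from bases -198 and -82. Spdef held TGACGT from base -201, Nupr1 held CAGCTG from base -211 and Lyz1 held CAGCTG from base 7. Over the 28 windows of the 20 genes, TATAAA stood in 25.0%, against 13.6% of all 32851 windows in the table. The shares were 17.9% against 16.3% for CAGCTG, 17.9% against 10.9% for TTTATNG, 3.57% against 3.65% for TGTTTAC and 3.57% against 7.51% for TGACGT. These matches describe the letters in the windows and show no binding.

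The arrays gave RMA log2 signal, made by the authors, between 2.39 and 14.6. Defining epithelial markers were present, with Epcam at 13.95, 13.95 and 13.96 in HDAC2 KO and 13.92, 13.95 and 13.92 in control. Markers of other tissues were present as well. In the comparison of genes described below, 1 of 10 markers of epithelium was called, as higher, and 3 of 6 of smooth muscle were called higher. Lymphocyte and leukocyte markers (6 of 6 tested) and adipocyte markers (4 of 4 tested) were called lower. These shares were 10%, 50%, 100% and 100%, against 17.9% of all genes tested. The mean log2 signal over the 8 leukocyte and lymphocyte markers on the array was 7.36 to 7.44 in HDAC2 KO and 8.13 to 8.20 in control, with Ptprc, the pan-leukocyte marker CD45, 1.74-fold lower. The part of these shifts in the results below was not tested, and in tissue samples fewer cells of a type and less RNA per cell cannot be told apart. The highest signal Hdac2 probe set read 10.21, 10.12 and 10.24 in HDAC2 KO and 10.40, 10.37 and 10.43 in control (difference -0.21, SE 0.040, limma adjusted p = 0.00893). It was not called in the fit of all probe sets (adjusted p = 0.0768). With probe sets shared between transcripts dropped, a dimmer Hdac2 probe set stood for the gene and was not called (-0.22, adjusted p = 0.0957). This dimmer set read 9.05, 8.77 and 9.08 in HDAC2 KO and 9.22, 9.15 and 9.17 in control.

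The 33 genes changed by small amounts and in both directions. For each gene the probe set of highest mean signal was compared by limma, over the 10916 genes whose mean signal reached the 40th percentile of all genes, 6.66. A gene was called at a Benjamini-Hochberg adjusted p under 0.05. Of the 31 genes tested, 6 rose, 4 fell and 21 were not called, so 32.3% were called, against 17.9% of all genes tested (9.68% higher and 8.2% lower). The called differences ran from 1.08-fold to 1.26-fold, and 2 of them, Muc1 and Lyz1, reached 0.3 on the log2 scale, as did 5.4% of all genes tested. The median difference was 0.0046 over the 31 genes and 0.0032 over all genes tested, and the median size of a difference, regardless of sign, was 0.097 and 0.065. The values of HDAC2 KO and control did not overlap for 21 of the 31 genes, 12 with HDAC2 KO above and 9 below, a share of 67.7% against 37.7% of all genes tested (19.9% above and 17.7% below). The count of 10 fell to 4 without control replicate 1, a share of 12.9% that lies near the 10.4% of all genes called there. It fell to 6 without control replicate 3 (19.4%, against 12.7% of all genes) and to 6 without HDAC2 KO replicate 1 (19.4%, against 11.7%). Without the signal filter it fell to 6 (18.2%, against 7.62%), losing Mptx1, Retnlb, Spdef and Tpsg1. In the fit of all probe sets it fell to 4 (12.1%, against 5.09%), which were Foxa2, Lyz1, Muc1 and Nupr1. With array weights it was 16 (51.6%, against 32.1%), gaining Agr2, Fer1l6, Foxa3, Gfi1, Muc2 and Muc4. With an intensity trend and robust variances Agr2, Fcgbp, Gfi1, Klk1 and Muc2 were gained. Retnlb and Tpsg1 were also not called after a further quantile normalization (adjusted p = 0.0653 and 0.0558), and Retnlb, Tpsg1 and Mptx1 not after each array was centred on its median (0.0766, 0.0587 and 0.0663). Foxa2, Lyz1, Muc1 and Nupr1 were called in each alternative in which they were tested, and Foxa2 alone of these was tested in all. Lyz1 and Nupr1 were not tested once probe sets marked as binding more than 1 transcript were dropped. Their calls therefore rest on probe sets of that type. Muc1 was not tested with a stricter filter on low signal.

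**Figure D1:**
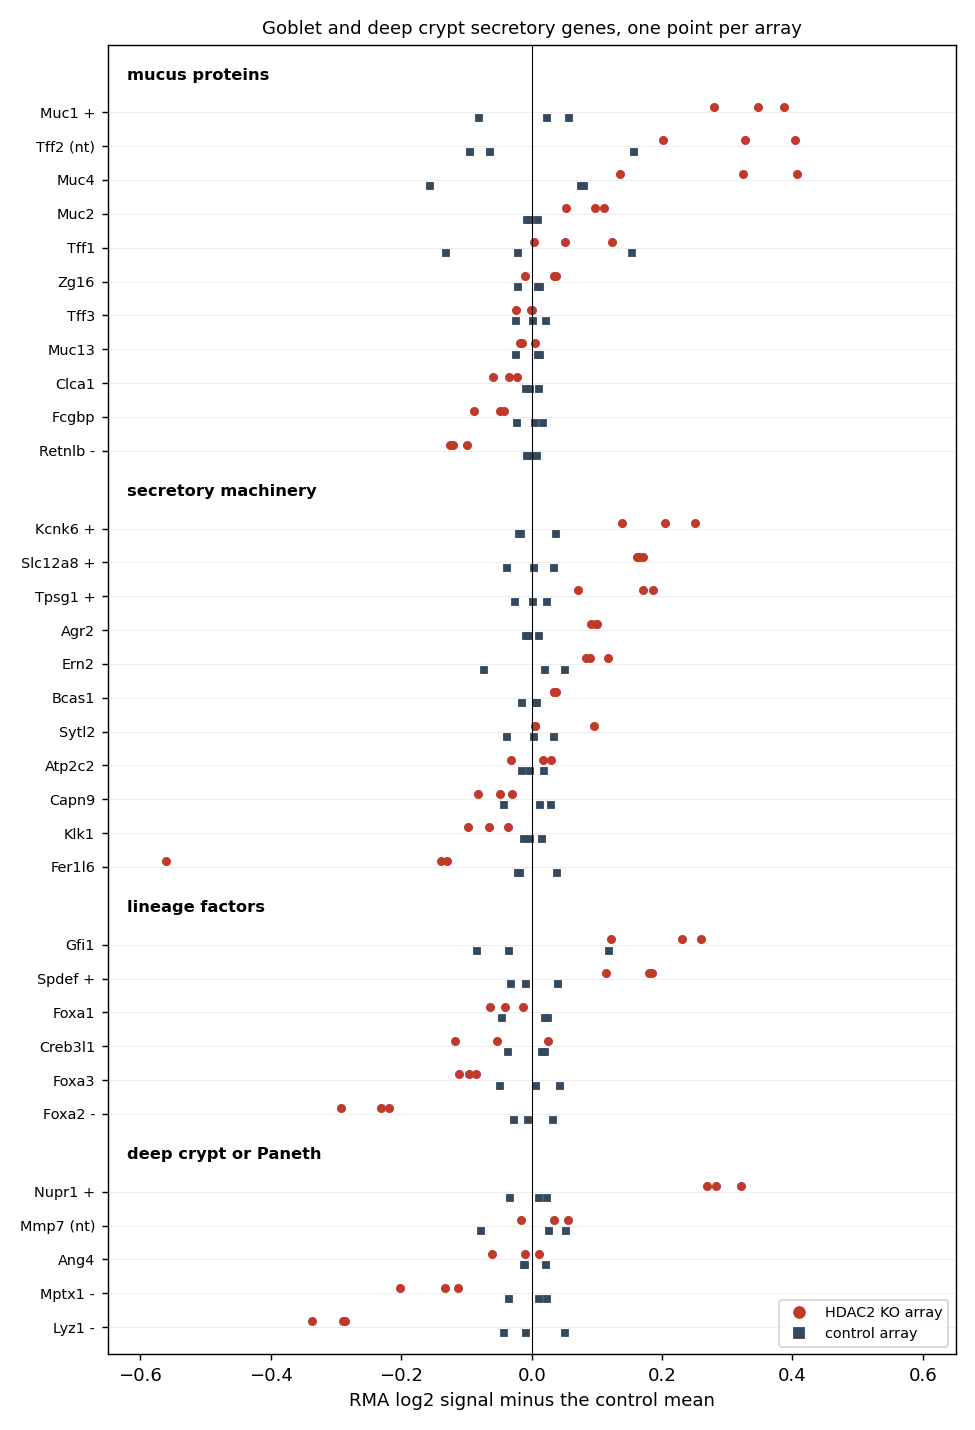
RMA log2 signal of each of the 33 genes on each array, minus the mean of the 3 control arrays (x axis), with genes grouped by role on the y axis. Circles are HDAC2 KO arrays and squares control arrays, + and - mark genes called higher and lower, and nt marks the 2 genes below the signal filter. All called genes had groups that did not overlap, and Muc1, with a difference of 0.34, and Lyz1, with -0.30, moved farthest in each direction.

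Among mucus proteins, the surface mucin Muc1 rose, and Retnlb fell. Of 10 tested, 1 rose, 1 fell and 8 were not called, a share called of 20%, close to the 17.9% of all genes tested. Muc1, a transmembrane mucin of many epithelia, read 7.94, 7.98 and 7.87 in HDAC2 KO and 7.51, 7.65 and 7.61 in control. The 3 HDAC2 KO arrays lay above all 3 control arrays, a 1.26-fold rise (difference 0.34, SE 0.047, adjusted p = 0.00217). Muc4, another transmembrane mucin, read 9.52, 9.34 and 9.61 in HDAC2 KO and 9.28, 9.04 and 9.28 in control. These groups did not overlap either, but the difference of 0.29 (SE 0.085) missed the threshold at an adjusted p of 0.0507. In a fit that also held the replicate number Muc4 had an adjusted p of 0.00492, and without HDAC2 KO replicate 2 it was 0.0126. Its second probe set read 7.71, 7.79 and 7.72 in HDAC2 KO and 7.47, 7.55 and 7.41 in control and was called higher in the fit of all probe sets (0.26, SE 0.055, adjusted p = 0.0497). The third, at 3.33 to 3.47 in HDAC2 KO and 3.33 to 3.53 in control, lay far below the filter level and did not separate the groups. Muc13, also a transmembrane mucin, differed by -0.0090 (95% interval -0.08 to 0.06).

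Muc2, Tff3, Zg16 and Fcgbp, which belong to the gel, were not called, at probe sets near the top of the signal range. Muc2, the gel-forming mucin of the colon, read 14.50, 14.44 and 14.49 in HDAC2 KO and 14.39, 14.38 and 14.40 in control. HDAC2 KO lay above control on every array, by 0.087, but the gene was not called (SE 0.033, adjusted p = 0.109). The trefoil factor Tff3, a peptide secreted with MUC2, differed by -0.0084 (95% interval -0.08 to 0.06), and Zg16, a lectin that binds Gram-positive bacteria, by 0.020 (-0.06 to 0.10). Fcgbp, a mucus protein that binds the Fc part of IgG, differed by -0.060 (adjusted p = 0.258), with all HDAC2 KO arrays below all control arrays. Retnlb, a resistin-like protein that goblet cells secrete, was the mucus gene that fell, with 13.71, 13.73 and 13.71 in HDAC2 KO and 13.83, 13.84 and 13.83 in control. The arrays did not overlap, but the fall was 1.08-fold (difference -0.12, SE 0.031, adjusted p = 0.0359). Retnlb was no longer called when replicate number entered as a block (adjusted p = 0.053), nor when any 1 array but HDAC2 KO replicate 2 was omitted (0.0698 to 0.119). Tff1, typical of stomach, differed by 0.059 (adjusted p = 0.615). Tff2, another stomach trefoil factor, lay below the filter at 6.55, 6.48 and 6.35 in HDAC2 KO and 6.05, 6.31 and 6.09 in control. Its groups did not overlap, with a difference of 0.31 (SE 0.082), and its adjusted p was 0.0714 without the filter and 0.0224 in the fit of the mean of each gene's probe sets. Of 7 stomach markers on the array, 1 had a signal above the filter and 0 were called.

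Several mucus and crypt genes read close to the highest value on the arrays. In 11 of the 33 genes every array read above 13, and 2 of these 11 were called, Retnlb and Mptx1. Where a gene had a second probe set above the filter, its difference was set beside that of the brightest one, for 11 genes in all. The signs were the same for 10 of the 11. Clca1, a metalloprotease of the mucus, showed a difference of -0.038 at the brightest probe set, at 14.55, 14.52 and 14.56 in HDAC2 KO and 14.57, 14.58 and 14.59 in control. At the second probe set it was -0.26, with 10.44, 10.28 and 10.46 in HDAC2 KO against 10.68, 10.67 and 10.60 in control. Neither was called (adjusted p = 0.745 and 0.0781 in the fit of all probe sets), while the mean of both was called lower (-0.15, adjusted p = 0.0348). Ang4, an antimicrobial ribonuclease of Paneth and goblet cells, differed by -0.020 at the brightest probe set, or 0.017 after a further quantile normalization, and by -0.18 at the second, which read 13.69, 13.68 and 13.73 in HDAC2 KO and 13.89, 13.86 and 13.88 in control. The second set of Ang4 stood for the gene once probe sets of the types marked as binding more than 1 transcript were dropped, and was then called lower (adjusted p = 0.01). The gap between the 2 probe sets of a gene separated HDAC2 KO from control for Clca1, Ang4 and Bcas1, each with an exact 2-sided permutation p of 0.1, the smallest that 3 against 3 arrays allow, and 0.367 after Benjamini-Hochberg adjustment over the 11 genes. The part of signal brightness in these gaps was not tested.

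**Figure D2:**
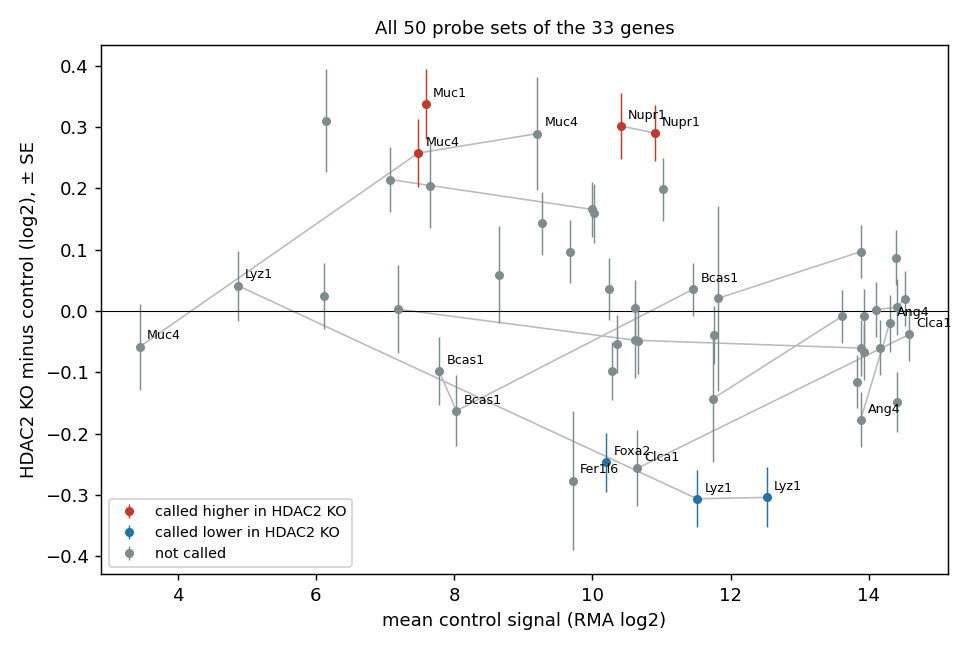
Log2 difference, HDAC2 KO minus control, with bars of 1 standard error (y axis) against mean control signal (x axis) for all 50 probe sets, with grey lines joining the probe sets of 1 gene. Red points were called higher and blue points lower in the fit of all probe sets: 4 and 3 of 50. The second probe sets of Clca1 and Ang4 lie lower on the plot than their brightest ones at the right edge, and the dim Lyz1 probe set at the left lies near 0.

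In that fit of all 45037 probe sets other than array controls, 7 of the 50 probe sets were called, or 14%, against 3.8% of all (1.72% higher and 2.08% lower). Those higher belonged to Muc1, Muc4 and Nupr1 and those lower to Lyz1 and Foxa2. With replicate number as a block, limma called 0 of the 50 (19 at an unadjusted p under 0.05), and likewise 0 without control replicate 1 (15 unadjusted) or control replicate 2 (16 unadjusted). The count was 2 without control replicate 3, 1 without HDAC2 KO replicate 1 or 3 and 4 without HDAC2 KO replicate 2. Calls over all probe sets were not counted under these settings. A loss particular to the 50 therefore cannot be told from a loss over the whole array.

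Among the genes of secretory machinery, Kcnk6, Slc12a8 and Tpsg1 rose. Of 11 genes tested, 3 rose, 0 fell and 8 were not called, a share of 27.3% against 17.9% of all genes tested. Kcnk6, a potassium channel, read 11.223, 11.270 and 11.157 in HDAC2 KO and 11.002, 11.055 and 10.999 in control. Its groups did not overlap, and it was 1.15-fold higher (difference 0.20, SE 0.040, adjusted p = 0.0119). Slc12a8, a transporter of the cation-chloride cotransporter family, read 10.161, 10.170 and 10.165 in HDAC2 KO and 10.004, 10.034 and 9.962 in control, a 1.12-fold rise (0.17, SE 0.033, adjusted p = 0.0119). A second probe set of Slc12a8 read 7.247, 7.250 and 7.371 in HDAC2 KO and 7.077, 7.085 and 7.064 in control, again with all HDAC2 KO arrays above control. Without control replicate 1 neither Kcnk6 (adjusted p = 0.0567) nor Slc12a8 (0.0526) was called. Tpsg1, a membrane-bound tryptase, read 9.46, 9.44 and 9.34 in HDAC2 KO and 9.29, 9.27 and 9.25 in control, 1.1-fold higher (0.14, SE 0.041, adjusted p = 0.0458). Omitting any 1 array but HDAC2 KO replicate 3 ended the call (0.0804 to 0.150). Mast cells also make tryptases. Of 10 mast cell markers 7 lay below the filter, among them the tryptase genes Tpsb2 and Tpsab1, whose groups overlapped (differences -0.081 and 0.038). Also below the filter, Cpa3, Cma1, Ms4a2 and Fcer1a had all HDAC2 KO arrays below all control arrays (-0.66, -0.17, -0.19 and -1.02). Mcpt4, below it too, overlapped (-0.16). Of the 3 tested, Mcpt1 and Mcpt2 fell, and Kit was not called (-0.027). The share called was 66.7% of only 3 genes, against 17.9% of all genes tested. The mean log2 signal over the 10 markers was 5.90 to 5.96 in HDAC2 KO and 6.50 to 6.55 in control, and the part of mast cells in the Tpsg1 result was not tested.

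The other 8 genes of secretory machinery were not called. Agr2, a disulphide isomerase needed to make MUC2, read 13.98, 13.98 and 13.97 in HDAC2 KO and 13.87, 13.88 and 13.89 in control, a separation on every array but with a difference of 0.097 that was not called (adjusted p = 0.0628). It was called with a filter at the 60th percentile (0.0385), after a further quantile normalization (0.031), with array weights (0.0129) and under an intensity trend with robust variances (0.000823). The second Agr2 probe set differed by 0.021 and overlapped. Ern2, the IRE1 beta sensor of the unfolded protein response in goblet cells, differed by 0.097 (adjusted p = 0.146), with the arrays again apart. The tissue kallikrein gene Klk1 differed by -0.067 (adjusted p = 0.213). Its 4 probe sets ranged from -0.067 to 0.0027, and kallikrein genes of the same cluster are similar enough to share probes. Sytl2, a RAB27 effector of granule release, the Golgi calcium pump gene Atp2c2 and the gut calpain Capn9 differed by 0.035, 0.0046 and -0.054, and none was called. Bcas1, a goblet cell marker gene, differed by 0.035 at its brightest probe set, while the 2 dimmer ones gave -0.16 and -0.098. Fer1l6, of the ferlin family of membrane fusion proteins, read 9.58, 9.16 and 9.59 in HDAC2 KO and 9.76, 9.70 and 9.70 in control. HDAC2 KO replicate 2 stood well below the other arrays, so the difference of -0.28 (SE 0.11) was not called (adjusted p = 0.113). Without HDAC2 KO replicate 2 the difference was -0.13 and was called (adjusted p = 0.0381).

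Among lineage factors, Spdef rose and Foxa2 fell. Of 6 tested, 1 rose, 1 fell and 4 were not called, a share of 33.3% of only 6 genes against 17.9% of all genes tested. Spdef, the ETS factor of goblet cell maturation, read 10.213, 10.141 and 10.208 in HDAC2 KO and 9.996, 10.069 and 10.019 in control. The groups did not overlap, a 1.12-fold rise (0.16, SE 0.037, adjusted p = 0.0225). The call was lost without control replicate 1 (0.0976), control replicate 3 (0.0673), HDAC2 KO replicate 1 (0.085) or HDAC2 KO replicate 3 (0.0613), without the signal filter (0.0723) and in the fit of all probe sets (0.152). Foxa2, a forkhead factor of gut epithelium, read 9.98, 9.97 and 9.91 in HDAC2 KO and 10.23, 10.19 and 10.17 in control. All 3 HDAC2 KO arrays lay below control, a 1.19-fold fall (-0.25, SE 0.036, adjusted p = 0.00261). The related factors Foxa1 and Foxa3 differed by -0.039 (95% interval -0.12 to 0.04) and -0.098 (-0.18 to -0.02), with adjusted p of 0.503 and 0.101, and whether they differ from Foxa2 was not tested. Gfi1, a repressor that acts in secretory precursors, read 7.88, 7.77 and 7.91 in HDAC2 KO and 7.62, 7.77 and 7.57 in control. Its difference of 0.20 (SE 0.061) missed the threshold (adjusted p = 0.0533), reached it without control replicate 2 (0.0228) or HDAC2 KO replicate 2 (0.026), and was 0.104 in the blocked fit. Creb3l1, a membrane-bound factor of secretory cells, differed by -0.048 and its groups overlapped.

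**Figure D3:**
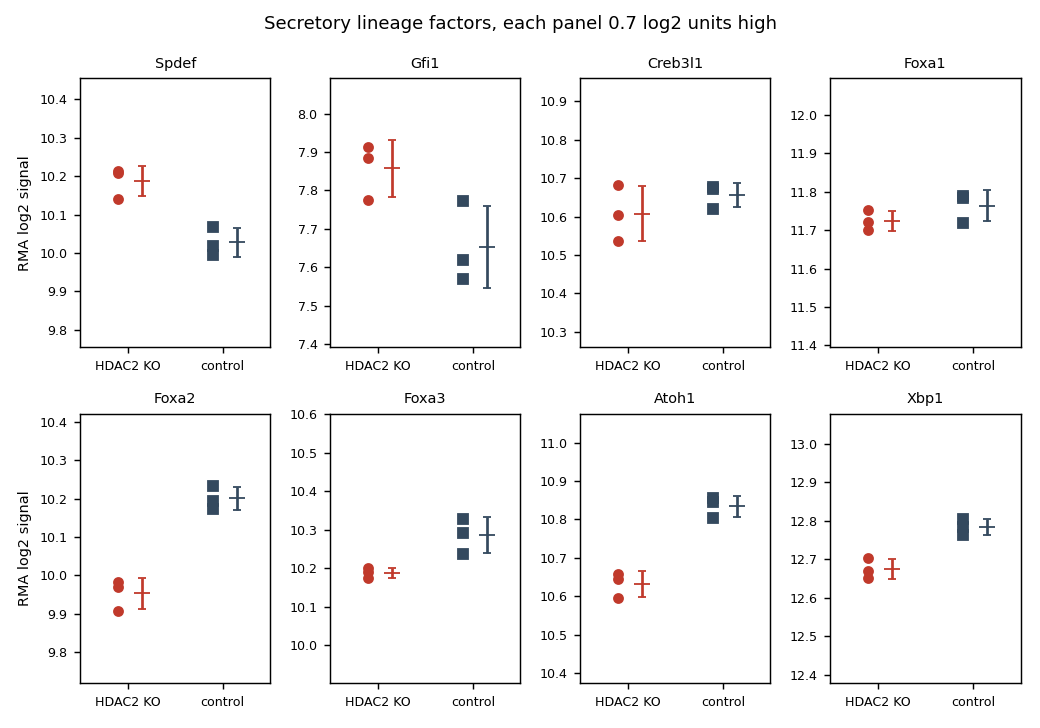
RMA log2 signal (y axis, 0.7 log2 units in every panel) of 8 transcription factors of the secretory lineage on each array, HDAC2 KO left and control right, with the group mean and SD (n = 3) beside the points. Spdef lies higher and Foxa2 and Atoh1 lower in HDAC2 KO with no overlap. Gfi1 (higher) and Foxa3 and Xbp1 (lower) also do not overlap but were not called, and Foxa1 and Creb3l1 overlap.

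Among crypt base markers, Nupr1 rose and Lyz1 and Mptx1 fell. Of 4 tested, 1 rose, 2 fell and 1, Ang4, was not called at its brightest probe set, a share of 75% of only 4 genes against 17.9% of all genes tested. Nupr1, a small nuclear protein induced by stress, read 11.22, 11.17 and 11.19 in HDAC2 KO and 10.93, 10.91 and 10.87 in control. The groups stood clearly apart, a 1.22-fold rise (0.29, SE 0.034, adjusted p = 0.000911). The second Nupr1 probe set read 10.77, 10.65 and 10.71 in HDAC2 KO and 10.43, 10.44 and 10.36 in control and gave a like difference of 0.30 (SE 0.054). Mptx1, a mucosal pentraxin, read 14.27, 14.20 and 14.29 in HDAC2 KO and 14.41, 14.37 and 14.43 in control. It fell 1.11-fold with no overlap (-0.15, SE 0.038, adjusted p = 0.0302), and omitting any 1 array but HDAC2 KO replicate 3 ended the call (0.0517 to 0.110). Mmp7, a metalloprotease that activates defensins in mouse Paneth cells, lay below the filter at 6.16, 6.18 and 6.11 in HDAC2 KO and 6.15, 6.04 and 6.18 in control, and the groups overlapped.

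Lyz1, the Paneth cell lysozyme gene of mouse, carried the widest fall of the 33 genes. Its brightest probe set read 12.23, 12.23 and 12.18 in HDAC2 KO and 12.57, 12.51 and 12.48 in control, 1.23-fold lower (-0.30, SE 0.038, adjusted p = 0.00113). A second probe set read 11.24, 11.20 and 11.19 in HDAC2 KO and 11.55, 11.51 and 11.49 in control, again with no overlap. Both carry a suffix that marks probes shared between transcripts. The third, which is not, read 4.89, 4.99 and 4.84 in HDAC2 KO and 4.92, 4.83 and 4.85 in control with groups that overlapped (difference 0.041, adjusted p = 0.796 in the fit of all probe sets). Lyz2, the near-identical lysozyme gene of macrophages, read 11.34, 11.38 and 11.33 in HDAC2 KO and 11.70, 11.68 and 11.62 in control, a difference of -0.32 (SE 0.036). Of 6 macrophage markers tested, Lyz2, Csf1r and Mpeg1 fell, Cd14 rose and 2 were not called. The share called was 66.7% of only 6 genes, against 17.9% of all genes tested. The mean log2 signal over all 9 macrophage markers was 8.43 to 8.47 in HDAC2 KO and 8.51 to 8.56 in control, and 3 of the 9, Adgre1, Cd68 and Itgam, lay below the filter. How much of the Lyz1 signal came from Lyz2 was not tested. With probe sets of every type marked as binding more than 1 transcript dropped, not only that of the brighter Lyz1 sets, Lyz1 lay below the filter and was not tested. Nupr1, Spdef, Foxa3 and Sytl2 had no probe set left, and whether their probe sets bind transcripts of other genes was not tested. Of the 26 genes tested in that setting 8 were called, against 16.2% of all genes tested there.

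**Figure D4:**
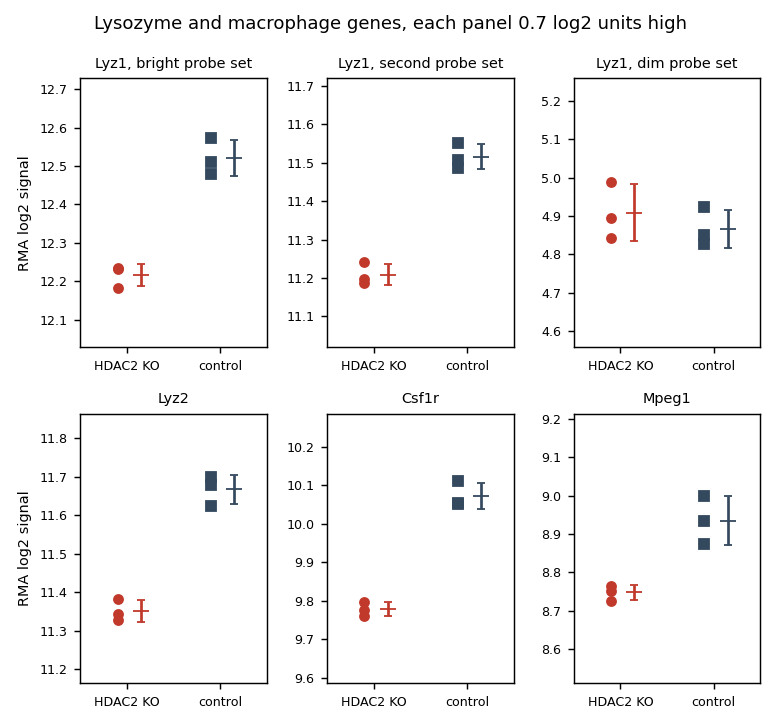
RMA log2 signal (y axis, 0.7 log2 units in every panel) of the 3 Lyz1 probe sets, Lyz2 and the macrophage genes Csf1r and Mpeg1 on each array, HDAC2 KO left and control right, with the group mean and SD (n = 3). The 2 brighter Lyz1 probe sets fall by 0.30 and 0.31 and Lyz2 by 0.32, whereas the dim Lyz1 probe set overlaps between groups. Of the macrophage markers tested but not drawn, Cd14 rose by 0.32, and C1qa and C1qb were not called.

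A further list of 40 genes held mostly other genes of mucus and crypt secretion, but also genes of absorptive cells such as Slc9a3. Of the 34 tested, 9 rose, 5 fell and 20 were not called. The share called was 41.2%, against 17.9% of all genes tested, with a median of 0.046. Atoh1, the regulator that starts the secretory lineage, read 10.64, 10.66 and 10.59 in HDAC2 KO and 10.84, 10.85 and 10.80 in control, 1.15-fold lower (-0.20, SE 0.035, adjusted p = 0.0057). This call was not made in the fit of all probe sets (adjusted p = 0.0655). Xbp1, the secretory stress factor activated by IRE1 proteins, differed by -0.11 (adjusted p = 0.0537). The deep crypt secretory marker Reg4 moved much farther than any of the 33 genes, with 12.14, 12.07 and 12.05 in HDAC2 KO and 13.26, 13.29 and 13.25 in control (-1.18, SE 0.036, adjusted p = 4.82e-07). Itln1, an intelectin secreted at the crypt base, was the widest rise, with 11.55, 11.36 and 11.77 in HDAC2 KO and 10.01, 10.10 and 9.94 in control (1.54, SE 0.094, adjusted p = 2.46e-05). Genes with called differences of at least 0.3 also included B3gnt6, which builds core 3 mucin sugars (0.89, SE 0.049, adjusted p = 1.35e-05), Gcnt3, which branches mucin sugars (0.33, SE 0.056, adjusted p = 0.00555), and the sodium-proton exchanger gene Slc9a3 of absorptive cells (0.53, SE 0.066, adjusted p = 0.00114). Among 10 absorptive colonocyte markers 6 rose and 0 fell, a share called of 60% against 17.9% of all genes tested.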

How the data were processed

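The 6 samples were hybridised as biotin-labelled cRNA to 1-colour Affymetrix mouse arrays. The deposited values are log2 signals that the authors made with RMA, per the submitters' processing notes, with no version given; their range, and array medians of 6.17 to 6.21, were read as log2. Quantile normalization, a step of RMA, hides a change in total RNA. Symbols were taken from the platform's 2016 annotation (34945 probe sets with 1 symbol, 932 with several), of which 34741 matched RefSeq of GRCm38.p6 by Entrez identifier, changing 0 symbols. Precision is limited by having 3 arrays in each group.

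The comparison used limma 3.58.1 (R 4.3.3; lmFit, then eBayes) with group as its sole term, per gene above the filter and over all probe sets. Each difference is HDAC2 KO minus control, each SE and 95% interval is limma's, and n is 3 arrays per group. Gene groups, lists and the rule for named genes (members called, or apart by at least 0.3 without overlap, on every array; other listed genes when called by at least 0.3; Atoh1, Reg4 and Itln1 in any case) were chosen with earlier results of these data known. Xbp1 and the further members given per array were singled out after their values were seen. The fit was tested on simulated data drawn independently for each array, a setting that leaves out correlation between arrays of the same number. Deviations from group means correlated between same-numbered arrays with r of 0.20 to 0.34, against -0.37 to 0.18 for other pairs across groups. The replicate number was therefore also used as a block, besides alternatives for filter, probe set, normalization, variance model, array weights and left-out arrays.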

Additional observations from a re-analysis of the deposited data

How the results depend on the processing

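Among the 33 genes, 10 were called, and the count was 6 without the signal filter, 4 in the fit of all probe sets and 16 with array weights. Leaving out 1 array gave 4 to 11 calls, with 4 without control replicate 1 and 6 without control replicate 3 or HDAC2 KO replicate 1. In the other 7 alternatives it lay between 7 and 15. Of the 50 probe sets, 7 were called, with 18 under an intensity trend and robust variances, 0 with the replicate number as a block (19 at an unadjusted p under 0.05), and 0 to 4 when 1 array was left out. Calls over all probe sets were not counted in these alternatives. Of the 34 genes tested on the further list of mostly secretory genes 14 were called. In the fit of all probe sets, which has no signal filter and took in the 37 of the list on the array, 8 were called. Of all genes, 17.9% were called in the main fit and 5.09% in the fit of all probe sets. With the replicate number as a block, Retnlb lost its call and Muc4 gained one, and 9 of the 10 called genes were shared. The difference of Hdac2 missed the threshold in the fit of all probe sets (-0.21, adjusted p = 0.0768). It also did so without probe sets shared between transcripts, where a dimmer probe set stood for the gene (-0.22, adjusted p = 0.0957). Over all genes, 1952 were called, with 926 in the fit of all probe sets, 3506 with array weights, 1130 without control replicate 1, 1276 without control replicate 2 and 1274 without HDAC2 KO replicate 1. In the fit of all probe sets and without the signal filter more features share the adjustment, and without an array fewer samples enter; beyond that the cause was not tested. No called gene named here turned its direction. The uncalled differences of Ang4, Atp2c2, Bcas1, Muc13, Tff1 and Tff3 changed sign in at least 1 alternative. Whether signals near the top or the bottom of the range limit the differences seen was not tested.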

Other observations

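Some of the genes lie next to each other in the genome. In the RefSeq annotation of GRCm38.p6, Tff3, Tff2 and Tff1 stand side by side on chromosome 17 with 0 coding genes between them, and their differences were -0.0084, 0.31 and 0.059 on the log2 scale, of which Tff2 lay below the signal filter. On chromosome 16, Muc4 and Slc12a8 were separated by 11 coding genes and Slc12a8 and Muc13 by 1, and their differences were 0.29, 0.17 and -0.0090, with Slc12a8 alone called among the 3 in the comparison of genes.

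Markers of enteroendocrine and tuft cells, other secretory cells of the gut, were read beside the goblet genes. Of 8 enteroendocrine markers 3 rose and 3 fell, and of 7 tuft cell markers 0 rose and 1 fell. The shares called were 75% and 14.3%, against 17.9% of all genes tested, so that of the tuft cell markers was no higher.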
